A study of Mus musculus with 4 samples.

Results

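Myeloid C-type lectin receptors are membrane proteins by which neutrophils, macrophages and dendritic cells bind sugars, glycolipids and products of dying cells. The activating members signal through the kinase SYK and the adaptor CARD9 towards NF-κB and cytokine genes, whereas inhibitory members carry an immunoreceptor tyrosine-based inhibitory motif (ITIM) that recruits phosphatases. CD300a, the receptor deleted in the mutant mice, is itself an ITIM receptor that binds phosphatidylserine on dying cells. The 8 genes described were chosen by name from the 25655 genes of the files. Of these, *Clec4d*, *Clec4e* and *Clec4n* encode proteins (MCL, Mincle and Dectin-2) that couple to the FcRγ chain encoded by *Fcer1g*. *Clec5a* (MDL-1) couples to DAP12, encoded by *Tyrobp*, and *Clec7a* (Dectin-1) has a tyrosine motif of its own. The others are the ITIM receptors *Clec4a2* (DCIR) and *Clec12a* (MICL), and *Clec10a* (MGL1), a galactose-type lectin.

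Cardiac neutrophils were taken for RNA-Seq on day 3 after myocardial ischemia and reperfusion (MI/R) from *Cd300a-/-* mice, bred on C57BL/6, and WT mice, with the aim of finding what CD300a controls in each neutrophil subset. CD45.2+CD11b+Ly6G+ cells were sorted from digested hearts into SiglecF hi and SiglecF lo neutrophils, which the labels name plus and minus. Each of the 4 groups is 1 library made from the pooled cells of 8 hearts, so no difference has a replicate check and no P value is given. The methods of the study give male mice of 8 to 12 weeks for MI/R. The SiglecF hi libraries held 19278243 (WT) and 17632989 (*Cd300a-/-*) gene counts, and the SiglecF lo libraries 9631901 (WT) and 10988619 (*Cd300a-/-*). Levels are TPM, read numbers scaled for transcript length and library size. Differences are log2((TPM + 1) ratios), and a gene was counted as changed past 0.5 in either direction if its mean TPM in the 4 libraries exceeded 10, as for 6523 genes. Intervals are 95% counting intervals, which cover counting error only. *Cd300a* stood at 162.9 TPM (WT) and 0.74 TPM (*Cd300a-/-*) in SiglecF hi neutrophils, and at 127 and 1.06 TPM in the SiglecF lo neutrophils. *Siglecf* stood at 354 and 405 TPM in SiglecF hi and at 11.3 and 15.3 TPM in SiglecF lo neutrophils, so both label genes followed the labels.

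All 8 receptor genes passed the mean TPM limit, and their levels spanned from 10.1 to 2981 TPM. *Clec4d* was the most abundant of them in both SiglecF lo libraries, where it ranked 31st (WT) and 44th (*Cd300a-/-*) among all genes by TPM. In SiglecF lo neutrophils of both genotypes the order was *Clec4d*, *Clec4e*, *Clec7a*, *Clec4n*, *Clec5a*, *Clec12a*, *Clec4a2* and *Clec10a*. In WT SiglecF hi neutrophils *Clec4n* moved ahead of *Clec7a*, and in *Cd300a-/-* SiglecF hi neutrophils *Clec4e* was first. *Clec4d* and *Clec4n* could not be ordered in *Cd300a-/-* SiglecF hi neutrophils, where the ratio of *Clec4n* to *Clec4d* was 0.996 (interval 0.974 to 1.02). The summed level of the 8 genes was 5771 TPM (WT) and 6408 TPM (*Cd300a-/-*) in SiglecF hi neutrophils, and 6434 TPM (WT) and 5575 TPM (*Cd300a-/-*) in SiglecF lo neutrophils. On the TPM scale, which shifts as a whole between the subsets, the sum stayed in a narrow range while the shares within it differed. *Clec4d* made up 46.3% of it in WT SiglecF lo and 27.9% in WT SiglecF hi neutrophils, and *Clec4n* 6.93% and 20.0%. *Clec10a* was the least abundant, from 133 to 302 counts per library, so its ratios have the widest intervals. Reads of *Clec4a2* may be shared with its close relatives *Clec4a1* and *Clec4a3*, and those of *Clec10a* with *Mgl2*, so the levels of both are uncertain.

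**Figure D1:**
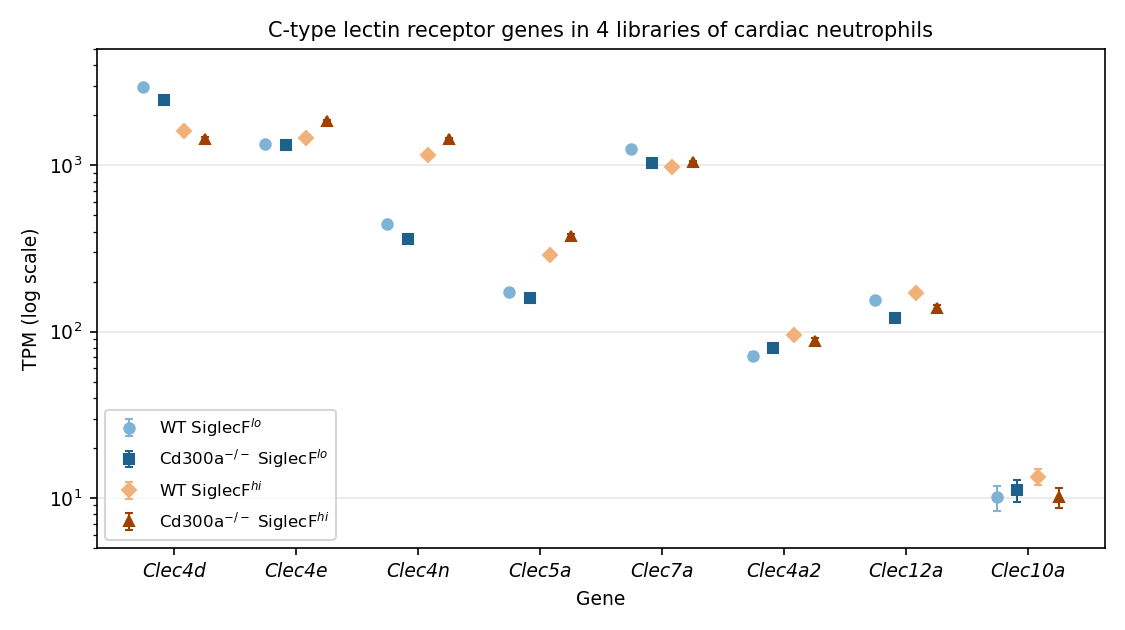
TPM of the 8 C-type lectin receptor genes on a log axis, 1 point per library, with 95% counting intervals as bars (smaller than the symbol for most points). *Clec4n* and *Clec5a* lie higher in both SiglecF hi libraries and *Clec4d* higher in both SiglecF lo libraries, and *Clec10a* stays between 10.1 and 13.4 TPM.

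Loss of *Cd300a* moved none of the 8 receptor genes past 0.5 in either subset. In SiglecF lo neutrophils 0 of 8 were higher and 0 of 8 lower past 0.5, where 16.4% of the 6523 genes were higher and 19.9% lower. In SiglecF hi neutrophils 0 of 8 were again past the threshold in either direction, where 3.31% of all genes were higher and 3.46% lower. The median log2 ratio of *Cd300a-/-* to WT over the 8 genes was -0.19 in the SiglecF lo and -0.01 in the SiglecF hi subset, against -0.02 and 0.04 over all genes tested. Most of the smaller differences nevertheless exceeded counting error. On the TPM scale, 5 of 8 intervals in SiglecF lo neutrophils lay below 0 and 1 above it, and in SiglecF hi neutrophils 4 lay below and 4 above. The share of all genes whose intervals exclude 0 is not given, so these counts describe the 8 genes only. In bulk RNA, fewer cells of a type and less RNA per cell cannot be told apart.

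Among the FcRγ-coupled receptors, *Clec4d*, which binds mycobacterial glycolipid and helps to bring Mincle to the surface, was at 2981 TPM (WT) and 2479.7 TPM (*Cd300a-/-*) in SiglecF lo neutrophils. It was at 1612 TPM (WT) and 1449.8 TPM (*Cd300a-/-*) in SiglecF hi neutrophils. Its level was thus lower without CD300a in either subset, by log2 ratios of -0.27 (interval -0.29 to -0.24) in SiglecF lo and -0.15 (-0.18 to -0.12) in SiglecF hi neutrophils. *Clec4e*, which encodes Mincle, a receptor for glycolipids and for the nuclear protein SAP130 of dying cells, was at 1337 TPM (WT) and 1329 TPM (*Cd300a-/-*) in SiglecF lo neutrophils. On the TPM scale these SiglecF lo levels did not differ beyond counting error (ratio -0.01, interval -0.04 to 0.02). In SiglecF hi neutrophils *Clec4e* was at 1462 TPM (WT) and 1854 TPM (*Cd300a-/-*), higher without CD300a (ratio 0.34, interval 0.32 to 0.36). *Clec4n*, which encodes the mannan receptor Dectin-2, was at 446 TPM (WT) and 361 TPM (*Cd300a-/-*) in SiglecF lo neutrophils, and at 1152 and 1444 TPM in the SiglecF hi neutrophils. It was therefore lower without CD300a in SiglecF lo (ratio -0.30, interval -0.38 to -0.23) and higher in SiglecF hi neutrophils (0.33, interval 0.29 to 0.36).

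The DAP12-coupled receptor gene *Clec5a* had the signs of *Clec4n*. It was at 173 TPM (WT) and 159.9 TPM (*Cd300a-/-*) in SiglecF lo neutrophils (ratio -0.11, interval -0.18 to -0.04) and at 289.7 and 378 TPM in SiglecF hi neutrophils (0.38, interval 0.34 to 0.42). With DESeq2 size factors its SiglecF lo ratio was -0.06, which is not beyond counting error. *Clec7a*, the gene of the β-glucan receptor, was at 1260.3 TPM (WT) and 1034 TPM (*Cd300a-/-*) in SiglecF lo neutrophils (ratio -0.28, interval -0.32 to -0.25). In SiglecF hi neutrophils it was at 976 and 1046 TPM (ratio 0.10, interval 0.07 to 0.13). The ITIM receptor genes differed from each other. *Clec12a*, whose protein binds uric acid crystals, was lower without CD300a in either subset, at 156 TPM (WT) and 121 TPM (*Cd300a-/-*) in SiglecF lo neutrophils (ratio -0.37, interval -0.45 to -0.28) and at 169.9 and 139 TPM in SiglecF hi neutrophils (-0.29, interval -0.35 to -0.22). *Clec4a2* was at 71.4 TPM (WT) and 79.6 TPM (*Cd300a-/-*) in SiglecF lo neutrophils (ratio 0.16, interval 0.04 to 0.27) and at 95.1 and 87.3 TPM in SiglecF hi neutrophils (-0.12, interval -0.21 to -0.04). *Clec10a* was at 10.1 and 11.1 TPM in SiglecF lo neutrophils, which did not differ beyond counting error (ratio 0.13, interval -0.17 to 0.43), and at 13.4 and 10.1 TPM in SiglecF hi neutrophils (-0.38, interval -0.62 to -0.14). The signs of these genotype ratios held under each scaling tried, except that of *Clec4e* in SiglecF lo neutrophils, which lay at 0.01 once the median of all genes was subtracted, at 0.02 with TMM scaling and at 0.05, beyond counting error, with DESeq2 size factors.

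The difference between the genotype ratios of the subsets, SiglecF lo minus SiglecF hi, lay below 0 beyond counting error for 5 of the 8 genes and above 0 for 2. It was -0.63 (interval -0.71 to -0.55) for *Clec4n*, -0.49 (-0.57 to -0.41) for *Clec5a*, -0.38 (-0.43 to -0.34) for *Clec7a*, -0.35 (-0.39 to -0.31) for *Clec4e* and -0.11 (-0.15 to -0.07) for *Clec4d*, whose value was -0.0715 with TMM scaling and -0.0533 with DESeq2 size factors. It was 0.51 (0.13 to 0.89) for *Clec10a* and 0.28 (0.13 to 0.42) for *Clec4a2*, and that of *Clec12a*, -0.08 (-0.19 to 0.03), could not be told from 0. Over all 6523 genes this difference had a median of -0.05, with the middle 50% of genes from -0.41 to 0.28. *Clec4n* and *Clec5a* lay below this range and *Clec10a* above it, though the interval of *Clec10a* reaches into the range. The 5th and 95th percentiles of all genes were -1.09 and 0.84, and the values of all 8 receptor genes lay between them. The share of all genes whose difference lay beyond counting error is not given, so those counts describe the 8 genes only. Whether these differences exceed the variation between mice was not tested.

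Between the subsets, *Clec4n* and *Clec5a* were higher and *Clec4d* lower in SiglecF hi than in SiglecF lo neutrophils of both genotypes. The WT comparison and the *Cd300a-/-* comparison share no library with each other, but both share their libraries with the genotype comparisons above. TPM shifted as a whole between the subsets, by a median of 0.53 in WT and 0.61 in *Cd300a-/-* over all genes, and in SiglecF lo neutrophils the 10 most abundant genes took 22.8% (WT) and 26.7% (*Cd300a-/-*) of TPM, against 12.3% and 11.8% in SiglecF hi. In WT, 2 of 8 receptor genes were higher and 1 lower in SiglecF hi past 0.5, where 51.9% of all genes were higher and 7.47% lower. Relative to the median shift 1 of 8 was higher and 2 were lower, where 19.3% of all genes were higher and 20.9% lower. With TMM scaling of the counts, 1 was higher and 2 lower, where the shares of all genes were 20.1% and 21.0%. In *Cd300a-/-*, 2 of 8 were higher and 1 lower, where 56.6% of all genes were higher and 7.97% lower. Relative to the shift 2 were higher and 3 lower (21.2% and 23.6% of all genes), and with TMM scaling also 2 and 3 (24.2% and 21.9%).

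*Clec4n* had the largest subset difference of the 8 on the TPM scale. Relative to the median of all genes *Clec4d* had the largest in WT, and in *Cd300a-/-* the sizes for *Clec4d* and *Clec4n* could not be ordered beyond counting error. SiglecF hi against SiglecF lo, its log2 ratio was 1.37 (interval 1.31 to 1.42) in WT, a 2.58-fold difference on the TPM + 1 scale, and 2.00 (1.94 to 2.05) in *Cd300a-/-*, a 3.99-fold difference. Relative to the median of all genes these ratios were 0.84 and 1.38, so *Clec4n* stayed past the threshold in both genotypes. *Clec4d* went the other way, with ratios of -0.89 (interval -0.91 to -0.86) in WT and -0.77 (-0.80 to -0.74) in *Cd300a-/-*, and -1.41 and -1.39 relative to the median. *Clec5a* had ratios of 0.74 (interval 0.69 to 0.80) and 1.23 (1.18 to 1.29), but relative to the median only the *Cd300a-/-* value, 0.62, passed 0.5, whereas the WT value was 0.22. *Clec7a* was within the threshold on the TPM scale, at -0.37 in WT and 0.02 in *Cd300a-/-*, but relative to the median it was at -0.89 and -0.60, so its sign in *Cd300a-/-* depends on the scaling. *Clec4e*, *Clec4a2* and *Clec12a* had positive ratios between 0.13 and 0.48 that turned negative relative to the median of all genes in both genotypes. *Clec10a* had ratios of 0.38 in WT and -0.13 in *Cd300a-/-*, and -0.15 and -0.75 relative to the median. The direction therefore depends on the scaling for *Clec4e*, *Clec4a2* and *Clec12a* in both genotypes and for *Clec10a* in WT only.

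**Figure D2:**
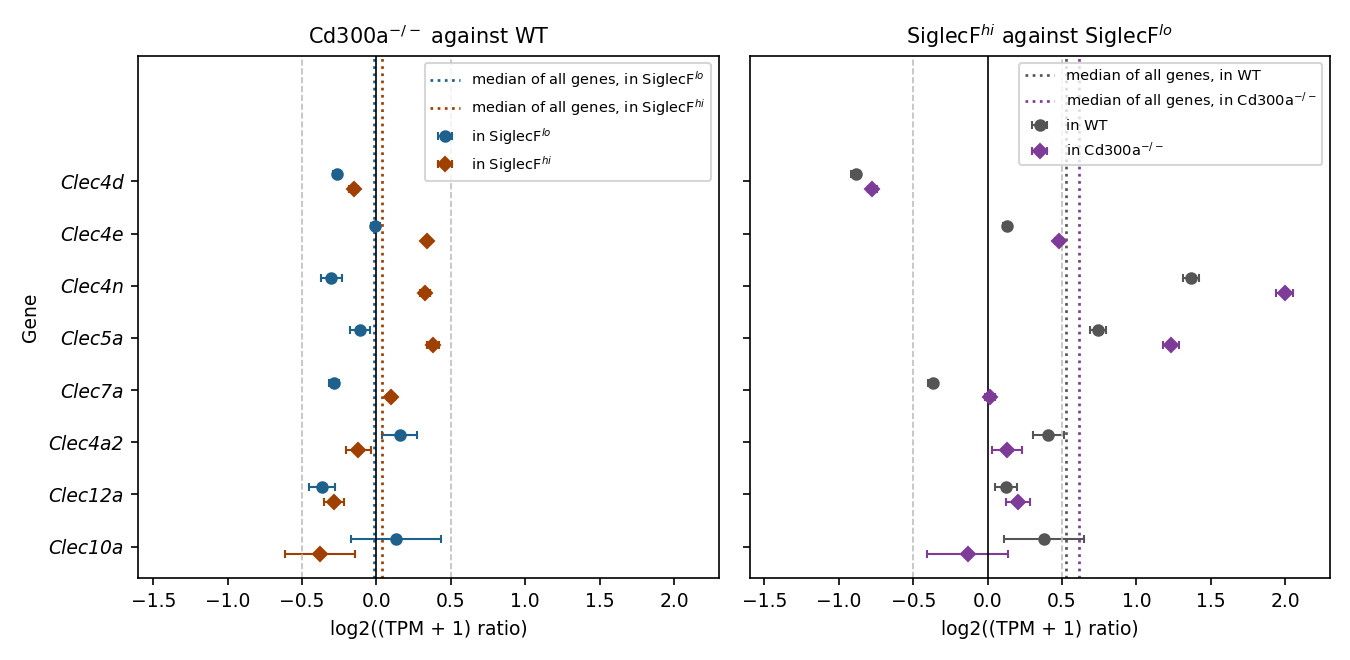
Log2((TPM + 1) ratio) of each receptor gene with its 95% counting interval, for *Cd300a-/-* against WT in each subset (left) and for SiglecF hi against SiglecF lo in each genotype (right); dotted lines mark the median of 6523 genes and dashed lines a ratio of 0.5 in either direction. No gene passes a dashed line on the left, and on the right *Clec4n* and *Clec5a* lie above 0.5 and *Clec4d* below -0.5 in both genotypes, the WT value of *Clec5a* only before centring on the median (0.22 after it).

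*Clec4n* and *Clec4d*, with opposite subset differences, are neighbours. On chromosome 6 (GRCm39, as the submitters' processing notes name the build), *Clec4n* (ENSMUSG00000023349) lies from 123206802 to 123223980 and *Clec4d* (ENSMUSG00000030144) from 123239070 to 123252224, both on the plus strand and 15.1 kb apart. *Clec4e* (ENSMUSG00000030142) follows 6.52 kb further on the minus strand, from 123258748 to 123266829, and *Clec4a2* (ENSMUSG00000030148) precedes them from 123083387 to 123120958, all within 183 kb. In the files 7 of the 8 genes lie on chromosome 6, with *Clec5a* (ENSMUSG00000029915) from 40551828 to 40562755, *Clec12a* (ENSMUSG00000053063) from 129319654 to 129342266 and *Clec7a* (ENSMUSG00000079293) from 129438554 to 129449742. *Clec10a* (ENSMUSG00000000318) lies on chromosome 11 from 70047023 to 70061660. None of the 8 overlaps another gene of the files. Within a library, the ratio of 2 genes does not depend on how libraries are scaled. The ratio of *Clec4n* to *Clec4d* in TPM was 0.150 (interval 0.144 to 0.155) in WT SiglecF lo and 0.146 (0.140 to 0.152) in *Cd300a-/-* SiglecF lo neutrophils. It was 0.715 (0.699 to 0.731) in WT SiglecF hi and, as given above, 0.996 in *Cd300a-/-* SiglecF hi neutrophils. The SiglecF lo libraries thus did not differ beyond counting error, both SiglecF hi libraries were higher, and those differed from each other. The ratio of *Clec4e* to *Clec4d* was 0.449 in WT and 0.536 in *Cd300a-/-* SiglecF lo neutrophils, and 0.907 and 1.28 in SiglecF hi neutrophils. The ratio of *Clec4n* to *Clec4e* was 0.334 and 0.272 in SiglecF lo, and 0.788 and 0.779 in SiglecF hi neutrophils, where the genotypes did not differ beyond counting error.

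**Figure D3:**
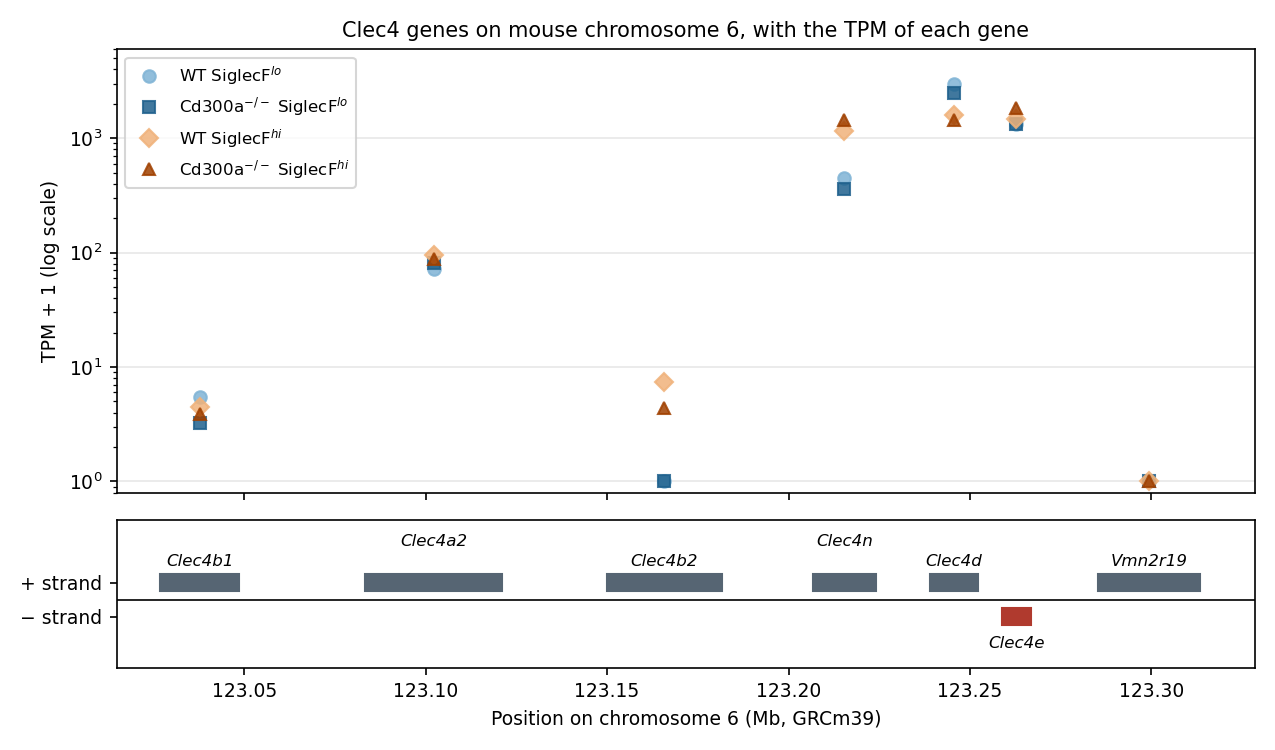
Map of part of mouse chromosome 6 with gene positions and strands to scale (bottom) and TPM + 1 of each gene in the 4 libraries at the gene's midpoint on a log axis (top). *Clec4n* and its neighbour *Clec4d* separate the subsets in opposite directions on the TPM scale, and *Vmn2r19*, the next gene after *Clec4e*, is at 0 TPM in all 4 libraries.

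Beyond the receptor genes themselves, little was measured around this cluster. *Clec4b2*, between *Clec4a2* and *Clec4n*, was at 6.41 TPM (WT) and 3.36 TPM (*Cd300a-/-*) in SiglecF hi neutrophils and at 0 in both SiglecF lo libraries, and *Clec4b1* lay between 2.25 and 4.47 TPM. Near *Clec12a* and *Clec7a*, the lectin genes *Clec12b*, *Clec1b*, *Clec9a* and *Clec1a* were all below 10 TPM in each library. *Olr1*, which starts within 100 kb of *Clec7a* and encodes a receptor for oxidized LDL, was at 85.7 TPM (WT) and 109 TPM (*Cd300a-/-*) in SiglecF hi neutrophils, and at 33.5 and 39.7 TPM in SiglecF lo neutrophils. *Cd69*, near *Clec12a*, was at 186 and 218 TPM in SiglecF hi, and at 71.3 and 41.2 TPM in SiglecF lo neutrophils. *Gabarapl1*, also near *Clec7a*, was at 56.7 and 56.2 TPM in SiglecF hi, and at 26.5 and 51.5 TPM in SiglecF lo neutrophils. None of the 7 genes near *Clec5a* passed the mean TPM limit. *Mgl2*, the relative of *Clec10a* 18.6 kb from it, was at 10.4 and 24.2 TPM in SiglecF hi and at 22.2 and 35.2 TPM in SiglecF lo neutrophils, higher in *Cd300a-/-* past 0.5 in both subsets (ratios 1.15 and 0.64).

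Promoters of *Clec4d*, *Clec4e* and *Clec5a* are shown, as genes whose upstream bases lie outside their annotated transcripts. Their subset differences were unlike, with *Clec4d* lower in SiglecF hi, *Clec5a* higher and *Clec4e* within the threshold on the TPM scale. The set of RefSeq promoters used here (GRCm38.p6, a build other than that of the positions above) held 6 of the 8 genes, without *Clec4n* and *Clec10a*. Those of *Clec7a*, *Clec12a* and *Clec4a2* were searched for motifs but are not printed. The 250 bases before the start are printed 5′ to 3′ on the strand of the gene. Capitals mark GAGGAA, the core of sites for PU.1 and other ETS factors, or TTGCNNAA, for C/EBP factors, on either strand, and no 2 marked stretches overlap.
*Clec4d*, chr6:123261857-123262106, plus strand: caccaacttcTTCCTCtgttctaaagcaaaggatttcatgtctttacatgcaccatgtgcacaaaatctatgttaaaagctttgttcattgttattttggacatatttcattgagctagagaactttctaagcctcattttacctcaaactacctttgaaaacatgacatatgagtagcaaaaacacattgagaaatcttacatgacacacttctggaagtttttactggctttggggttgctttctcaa
*Clec4e*, chr6:123289872-123290121, minus strand: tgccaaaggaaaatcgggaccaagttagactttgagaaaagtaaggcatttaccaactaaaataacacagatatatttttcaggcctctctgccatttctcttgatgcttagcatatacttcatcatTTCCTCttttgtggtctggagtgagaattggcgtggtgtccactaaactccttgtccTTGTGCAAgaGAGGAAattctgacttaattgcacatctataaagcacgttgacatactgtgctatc
*Clec5a*, chr6:40585806-40586055, minus strand: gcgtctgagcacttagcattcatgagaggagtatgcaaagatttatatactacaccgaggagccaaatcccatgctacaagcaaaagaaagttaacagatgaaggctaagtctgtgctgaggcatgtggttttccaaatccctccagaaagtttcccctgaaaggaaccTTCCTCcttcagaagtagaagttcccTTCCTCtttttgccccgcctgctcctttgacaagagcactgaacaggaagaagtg
GAGGAA was found 56 and 123 bases before the start of *Clec4e* and 55 and 81 bases before that of *Clec5a*. For *Clec4d* it lay 240 bases before the start. It was found for 5 of the 6 genes and occurs in 23.4% of 32536 distinct promoter windows of this length, from which a chromosome was left out. A receptor gene was counted if any of its windows matched, so the counts are of genes and the percentages of windows. TTGCNNAA was found in *Clec4e* and *Clec12a* and occurs in 9.57% of windows. Of the other motifs searched, TGANTCA (AP-1) was found for 1 of 6 genes and in 6.73% of windows. TTCNNNGAA (STAT) was found for 1 of 6 genes and in 7.04% of windows. The NF-κB motif (GGG, 5 bases of any kind, CC) was found for 0 of 6 genes and in 46.0% of windows. A match describes the letters and no binding was measured.

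The adaptor genes *Fcer1g* and *Tyrobp* were abundant in all 4 libraries, and of the receptor genes only *Clec4d*, in WT SiglecF lo neutrophils, exceeded *Fcer1g* (ratio 1.05 in TPM). *Fcer1g* was at 2917 TPM (WT) and 2734 TPM (*Cd300a-/-*) in SiglecF hi, and at 2836 and 2571 TPM in SiglecF lo neutrophils. *Tyrobp* was at 4928 and 4742 TPM in SiglecF hi, and at 6600 and 5451 TPM in SiglecF lo neutrophils. Of 17 genes of adaptors and kinases, 15 passed the mean TPM limit. In *Cd300a-/-* against WT SiglecF lo neutrophils 2 of 15 were higher and 1 lower (16.4% and 19.9% of all genes), with a median of 0.27. In SiglecF hi neutrophils 0 were higher or lower (3.31% and 3.46% of all genes), with a median of 0.12. *Syk*, the kinase that the activating receptors share, rose from 164 TPM to 251 TPM (ratio 0.61, interval 0.56 to 0.66) in *Cd300a-/-* SiglecF lo neutrophils. *Malt1*, a protease of the CARD9 complex, rose from 11.9 to 25.2 TPM (ratio 1.02, interval 0.85 to 1.18), and *Hcst*, which encodes the adaptor DAP10, fell from 266 to 155 TPM (-0.78, interval -0.96 to -0.59). *Card9* was at 55.9 TPM (WT) and 73.3 TPM (*Cd300a-/-*) in SiglecF lo neutrophils (ratio 0.39), within the threshold. Between the subsets, relative to the median of all genes, 1 of 15 was higher and 7 lower in WT SiglecF hi neutrophils (19.3% and 20.9% of all genes), and 0 higher and 11 lower in *Cd300a-/-* (21.2% and 23.6%). These counts depend on the scaling, as on the TPM scale 3 were higher and 2 lower in WT (51.9% and 7.47% of all genes), and 2 higher and 3 lower in *Cd300a-/-* (56.6% and 7.97%). The phosphatase genes of ITIM receptors, *Ptpn6*, *Ptpn11* and *Inpp5d*, stayed within 0.5 between genotypes in both subsets, with ratios of 0.17, 0.34 and 0.32 in SiglecF lo and 0.14, -0.10 and 0.11 in SiglecF hi neutrophils.

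Of 16 cytokine and response genes that SYK and CARD9 signals are known to induce, which other receptors such as Toll-like receptors induce as well, 13 passed the mean TPM limit. The most abundant were *Il1b*, *Cxcl2* and *Ccl3*. *Il1b* was at 9238.7 TPM (WT) and 6637 TPM (*Cd300a-/-*) in SiglecF lo, and at 9987 and 12137 TPM in SiglecF hi neutrophils. In SiglecF lo neutrophils 1 of 13 was higher without CD300a (*Il10*, 1.04) and 4 were lower, namely *Il6* (-1.86), *Cxcl1* (-1.23), *Ccl3* (-0.58) and *Ccl4* (-0.57), with a median of -0.21, where 16.4% of all genes were higher and 19.9% lower. *Il10* passed the mean TPM limit through the SiglecF hi libraries only, and in the SiglecF lo libraries compared it had 27 (WT) and 69 counts, or 4.01 and 9.29 TPM. In SiglecF hi neutrophils 0 of 13 were higher and 1 lower (*Cxcl1*, -0.57), with a median of 0.16, where 3.31% of all genes were higher and 3.46% lower. Levels in SiglecF hi neutrophils were higher than in SiglecF lo neutrophils past 0.5 for 11 of 13 genes in WT and 13 of 13 in *Cd300a-/-*. On this scale 51.9% and 56.6% of all genes were higher. The WT exceptions were *Il1b* (ratio 0.11) and *Il6* (-0.31). Relative to the median of all genes 6 of 13 were higher and 1 lower in WT (19.3% and 20.9% of all genes), and 9 higher and 0 lower in *Cd300a-/-* (21.2% and 23.6%). *Tnf* was at 1309 TPM (WT) and 1637 TPM (*Cd300a-/-*) in SiglecF hi, and at 333 and 327 TPM in SiglecF lo neutrophils. Genes of reported endogenous ligands were measured in the same cells. *Anxa1*, whose product binds Dectin-1 on apoptotic cells, rose from 826 to 1452 TPM in *Cd300a-/-* SiglecF lo neutrophils (ratio 0.81, interval 0.78 to 0.85). *Anxa5* (-0.24), *Sap130* (-0.22) and *Lgals9* (309 TPM in WT, 308 TPM without CD300a) stayed within the threshold there, as did all 4 measured ligand genes in SiglecF hi neutrophils.

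Of 50 other C-type lectin genes, 12 passed the mean TPM limit and 7 had no count in any library. Among the most abundant were *Clec4a3*, *Clec4a1* and *Cd69*, which is given above. *Clec4a3*, a relative of *Clec4a2*, was at 161 TPM (WT) and 83.1 TPM (*Cd300a-/-*) in SiglecF lo neutrophils (ratio -0.95, interval -1.09 to -0.81) and at 198 and 174 TPM in SiglecF hi neutrophils (-0.19). *Clec4a1* was at 136 and 96.6 TPM in SiglecF lo, and at 135 and 151 TPM in SiglecF hi neutrophils, within the threshold between genotypes. Without CD300a, 2 of the 12 were higher and 3 lower in SiglecF lo neutrophils (16.4% and 19.9% of all genes), with 2 lower relative to the median or with TMM scaling. Between the SiglecF hi libraries 3 were higher (*Mgl2*, *Cd72* and *Selp*) and 1 lower (*Mrc2*), where 3.31% and 3.46% of all genes were. *Mrc2* passed the mean TPM limit through WT SiglecF hi neutrophils only (17.1 TPM, against 8.77 TPM without CD300a). *Selp* passed it through the SiglecF lo libraries only, and was at 4.24 TPM (WT) and 7.05 TPM in the SiglecF hi libraries compared.

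The genes with the most similar patterns over the 4 libraries, by Euclidean distance of centred log2(TPM + 1), were *Ormdl2* and *Ptpn22* for *Clec4n* (distances 0.10 and 0.10), *Tmem154* and *Pla2g7* for *Clec4d* (0.10 and 0.12), and *Comtd1* and *Ankrd13c* for *Clec4e* (0.06 and 0.06). They were *Eif2b4* and *Zfp68* for *Clec5a* (0.04 and 0.06), *Sertad1* and *Ccdc174* for *Clec7a* (0.05 and 0.06), and *Rnf115* and *Sirt7* for *Clec4a2* (0.03 and 0.04). For *Clec12a* they were *Tnfaip8* and *Ube2l3* (0.08 and 0.08), and for *Clec10a* *Ahsa2* and *Tnfrsf18* (0.06 and 0.08). *Clec4n* and *Clec4d* were 2.53 apart on the same scale, the largest distance between 2 of the 8 genes.

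Macrophages and monocytes also express several of these receptors, and their marker genes moved between the subsets. Of 11 macrophage markers, 8 were higher and 1 lower in WT SiglecF hi than in SiglecF lo neutrophils (51.9% and 7.47% of all genes), and 9 were higher and 0 lower in *Cd300a-/-* (56.6% and 7.97%). Relative to the median of all genes, 7 were higher in WT and 4 in *Cd300a-/-* (19.3% and 21.2% of all genes), and 1 was lower in either genotype (20.9% and 23.6%). Their summed level was 7052 TPM (WT) and 6414 TPM (*Cd300a-/-*) in SiglecF hi neutrophils, and 2801 TPM (WT) and 2744 TPM (*Cd300a-/-*) in SiglecF lo neutrophils. The most abundant on average, *C1qb*, was at 2257, 2036, 839 and 754 TPM in the same order, and none of the 11 was at 0 in any library. *Mertk*, counted as higher in both genotypes, passed the mean TPM limit through the SiglecF hi libraries only. It was at 48.8 TPM (WT) and 36.3 TPM (*Cd300a-/-*) there, and at 9.91 and 8.90 TPM in SiglecF lo neutrophils. On the TPM scale most macrophage markers moved in the direction of *Clec4n* and *Clec5a*, and their part in those differences was not tested. Monocyte markers summed to 911 and 753 TPM in SiglecF hi, and to 1272 and 1081 TPM in SiglecF lo neutrophils, with *Ly6c2* the most abundant, at 270 and 226 TPM in SiglecF hi, and at 756 and 706 TPM in SiglecF lo neutrophils. *Ly6c2* carried the lower sum, and *F13a1* and *Fn1* had higher TPM in both SiglecF hi libraries than in either SiglecF lo library. Neutrophil markers, with *S100a9* the most abundant, summed to 26471 and 31076 TPM in SiglecF hi, and to 153268 and 200969 TPM in SiglecF lo neutrophils. In SiglecF hi all 7 had a lower TPM than in SiglecF lo neutrophils, past 0.5 for 5 of 7 in WT (7.47% of all genes) and 7 of 7 in *Cd300a-/-* (7.97%). Relative to the median, or with TMM scaling, it was 7 of 7 in both genotypes (20.9% and 23.6% of all genes relative to the median). *Ly6g*, which encodes the antigen used for the sort, was at 11.1 and 41.9 TPM in SiglecF hi, and at 330.4 and 889 TPM in SiglecF lo neutrophils. Neutrophil markers thus moved in the direction of *Clec4d*, and their part was not tested either. Dendritic cell markers summed to between 5.03 and 15.3 TPM, with *Cd209a* at 10.5 TPM in WT SiglecF lo and at 0 in *Cd300a-/-* SiglecF lo neutrophils. Of the eosinophil markers *Epx* had no count in any library and *Prg2* was at 0.27 TPM or less, and *Ear2*, at 85.9 to 171 TPM, made up most of their sum of 87.9 to 173 TPM. B cell markers summed to at most 7.10 TPM and T and NK cell markers to at most 4.59 TPM. Fibroblast markers, with *Dcn* the most abundant, summed to 1457 and 1020 TPM in SiglecF hi, and to 677 and 622 TPM in SiglecF lo neutrophils. Endothelial markers summed to 57.5 and 78.9 TPM in SiglecF hi, and to 103 TPM (WT) and 39.9 TPM (*Cd300a-/-*) in SiglecF lo neutrophils, and cardiomyocyte markers to between 11.7 and 33.6 TPM.

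Between genotypes, 2 of the 11 macrophage markers were higher and 1 lower without CD300a in SiglecF lo neutrophils, with a median of 0.02, where 16.4% of all genes were higher and 19.9% lower. The SiglecF hi subset had 2 higher and 0 lower, with a median of -0.07, where 3.31% of all genes were higher and 3.46% lower. Neutrophil markers were higher without CD300a for 3 of 7 in SiglecF lo neutrophils (median 0.43) and 2 of 7 in SiglecF hi neutrophils (median 0.21), and none was lower. All 5 monocyte markers had negative ratios in both subsets, of which only *Ms4a4c* in SiglecF lo neutrophils passed the threshold (-1.24). Of 3 endothelial markers over the limit, 2 were lower in SiglecF lo and 1 was higher in SiglecF hi neutrophils. Of 3 fibroblast markers 0 were past the threshold in SiglecF lo and 2 were lower in SiglecF hi neutrophils, and of 2 cardiomyocyte markers 1 was lower in SiglecF lo and 0 were past it in SiglecF hi neutrophils. The eosinophil marker *Ear2* was lower in SiglecF lo neutrophils (-0.98). The part of these cells in the genotype ratios of the receptor genes was not tested.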

How the data were processed

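Poly(A)-selected RNA of 4 sorted cell pools was made into libraries with a NEBNext Ultra II kit and sequenced as paired ends by the authors, and CLC Genomics Workbench was used for TPM. The authors deposited a count of each gene without normalization, which was used for depth and intervals. The deposited TPM, scaled for length and library, was used as it stands. Deposited RPKM and scaled CPM columns were not used. Whether the counting used strand is not given in the sources used here. Log2((TPM + 1) ratios) were computed with Poisson intervals of both counts (Python 3.11.15, numpy 2.4.6, pandas 2.3.3, figures with matplotlib 3.10.9) and tested on simulated data. Alternatives were a pseudocount of 0.1, TMM scaling (edgeR 4.0.16, R 4.3.3), DESeq2 1.42.0 size factors, centring on the median, other limits on low values and a threshold of 1. The genes named are the receptors, the genes of lists of adaptors, phosphatases, targets, ligands, other lectins and cell type markers (all over the limit in short lists, the 3 most abundant in long ones, and others needed to read a count), *Cd300a* and *Siglecf*, the 2 nearest patterns per receptor, and genes starting within 100 kb. After the analysis 1 gene was taken out of the lists and is not reported here. The receptors and lists were chosen with earlier results of these data known.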

Additional observations from a re-analysis of the deposited data

Results flagged for a closer look

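Of 107 named genes over the mean TPM limit, 25 had genotype ratios of opposite sign in the 2 subsets with both counting intervals on either side of 0, as had 15.8% of the 6523 genes tested. The 107 include the nearest patterns, which were picked for following the receptors, so the 2 sets are not alike. None of the 25 passed 0.5 in both subsets, and the difference was not tested between conditions, because each has 1 library. The values are the log2 ratio of *Cd300a-/-* to WT in SiglecF lo minus that in SiglecF hi neutrophils. Among the 8 receptor genes it was -0.63 for *Clec4n*, -0.49 for *Clec5a*, -0.38 for *Clec7a* and 0.28 for *Clec4a2*. For *Bcl10*, a partner of CARD9, it was -0.24. Among the response genes it was -0.83 for *Ccl4*, -0.76 for *Il1b*, -0.74 for *Ccl3*, -0.51 for *Cxcl2*, -0.49 for *Ptgs2*, -0.34 for *Nlrp3*, -0.34 for *Egr2* and 1.44 for *Il10*. Other lectin genes gave -1.11 for *Selp*, -0.999 for *Cd69*, -0.65 for *Clec4a1* and 0.73 for *Mrc1*, which is also a macrophage marker. The macrophage marker *Csf1r* gave -0.28. Endothelial markers gave -2.20 for *Pecam1*, -1.74 for *Cdh5* and -0.93 for *Vwf*, and the fibroblast marker *Col1a1* gave 0.86. The nearest patterns *Ptpn22* and *Rnf115* gave -0.68 and 0.30. *0610010K14Rik*, near *Clec10a*, gave -1.66. Being among the 25 depends on the scaling for *Bcl10*, *Clec5a* and *Egr2*. The SiglecF lo ratio of *Bcl10* is within counting error of 0 relative to the median of all genes, with TMM scaling and with DESeq2 size factors. Those of *Clec5a* and *Egr2* are so with DESeq2 size factors.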

How the results depend on the processing

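No paired or blocked analysis was run, and each group has 1 library. Between genotypes, 0 of 8 receptor genes passed the threshold in either subset under each alternative run. Between the subsets *Clec4n* stayed higher and *Clec4d* lower past 0.5 under each scaling in both genotypes. In WT the receptor genes higher went from 2 to 1 and those lower from 1 to 2 with TMM scaling, DESeq2 size factors and centring alike. With a threshold of 1, WT had 1 past it, 1 higher and 0 lower. In *Cd300a-/-* the total went from 3 to 5 and those lower from 1 to 3 with TMM scaling and with centring, to 6 and 4 with DESeq2 size factors, and those lower to 0 with a threshold of 1. These changes follow from the median shift between the subsets and from the higher threshold. The SiglecF lo minus SiglecF hi difference became -0.0533 for *Clec4d* with DESeq2 size factors, -0.31 (TMM) and -0.29 (DESeq2) for *Clec4e*, and -0.32 (DESeq2) for *Clec7a*, which keep their sign. A pseudocount of 0.1 left all 40 receptor values within their intervals. Of all genes, 2367 passed 0.5 between genotypes in the SiglecF lo and 442 in the SiglecF hi subset, against 611 and 46 past 1, 5178 and 1716 with a mean TPM over 1, 6476 and 2674 without a limit, and 1516 and 367 with a TPM over 10 in both libraries, or 3012 and 709 in at least 1. Between the subsets 3873 genes (WT) and 4212 (*Cd300a-/-*) passed 0.5, against 1520 and 1975 past 1, 7317 and 7619 with a mean TPM over 1, and 8813 and 8996 without a limit. Depth limits *Clec10a* most, with 133 counts in WT SiglecF lo neutrophils.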
